A study of Mus musculus with 18 samples.

Results

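The claudins of the colon tight junction were described here as 9 genes, Cldn1, Cldn2, Cldn3, Cldn4, Cldn7, Cldn8, Cldn12, Cldn15 and Cldn23, taken from a gene count table by their symbols. They were 9 of the 24047 rows of the table. Counts were present in all 18 libraries for 8 of them, and Cldn1 held 1 read in the whole data set.

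Claudins are small membrane proteins with a pair of extracellular loops that polymerise into the strands of tight junctions, where neighbouring epithelial cells meet near their apical surface. Some of them, the pore formers, line channels through which small cations and water pass between the cells, and others, the sealing claudins, close that route. In the colon the sealing members are the more prominent, the distal colon resorbs sodium against a steep gradient, and the pore former Cldn2 is found mostly toward the crypt base.

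RNA-Seq was done on crypt epithelial cells of the distal colon, with 6 groups of 3 mice. GF-WT and GF-Ern2-/- mice were germ free. COLONIZED-WT and COLONIZED-Ern2-/- mice were germ-free mice gavaged with cecal material of conventional WT donors and examined 14 days later, after housing in sterile cages outside the isolator. CONV-WT and CONV-Ern2-/- mice were raised conventionally, with a microbiota from birth. All were on a C57BL/6 background, and the Ern2-/- mice lacked Ern2 in the whole body, not in the epithelium alone. Ern2 encodes an endoplasmic reticulum stress sensor (IRE1β) of mucosal epithelia. The age and sex of the mice used for sequencing are not given in the sources used here. Replicates were separate mice as far as their labels tell, so the p-values below measure the spread between these libraries.

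Library totals ran from 5865619 to 23154481 counts, with the lowest in the CONV groups. Normalized Ern2 counts were 1909 to 3100 in the WT libraries and 386.1 to 3336 in those labelled Ern2-/-. The count lay within or above the WT range in 3 of the 9 libraries labelled Ern2-/-, GF replicates 1 and 3 and COLONIZED replicate 1, so the genotype is given below as labelled. COLONIZED-Ern2-/- replicate 3, at 1885, lay just under that range and is not among the 3. Where the deletion lies relative to the counted reads is not given in the sources used here. Y-linked transcripts summed to over 1 CPM in all 3 CONV-Ern2-/- libraries, in 2 each of COLONIZED-WT, COLONIZED-Ern2-/- and GF-Ern2-/-, in 1 CONV-WT library and in 0 GF-WT libraries. Markers of epithelial cells were abundant, with Epcam at 8948 to 34787 and Krt8 at 37125 to 69978 normalized counts, against at most 256 for the leukocyte gene Ptprc and at most 27.6 for the fibroblast collagen Col1a1.

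By RefSeq in build GRCm38.p6, with exon counts from GENCODE M21, 4 members lie on chromosome 5. Cldn4 (chr5:134945123-134946934, minus strand, a single exon) and Cldn3 (chr5:134986214-134987476, plus strand, a single exon) are neighbours 39.3 kb apart. Cldn15 (chr5:136967869-136975845, plus strand, 5 to 6 exons by transcript) and Cldn12 (chr5:5505015-5514976, minus strand, 4 to 5 exons) are on the same chromosome. Cldn1 (chr16:26356645-26371839, minus strand) and Cldn8 (chr16:88560826-88563183, minus strand, a single exon) are on chromosome 16. Cldn7 is at chr11:69964779-69967886 (plus strand), Cldn23 at chr8:35824709-35826559 (minus strand, a single exon), and Cldn2 at chrX:139800808-139811386 (plus strand, 2 exons).

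The stretches just before the start sites of Cldn2 and Cldn15, the pore formers that rose together on colonization, and of the neighbours Cldn3 and Cldn4, which were both higher in CONV than in COLONIZED libraries labelled Ern2-/-, are printed 5′ to 3′ on the gene's strand from RefSeq (GRCm38.p6). They lie outside annotated exons. That of Cldn15 is in an intron of a longer annotated Cldn15 transcript and stops 25 bases short of the RefSeq start because an exon of that transcript begins there. Capitals mark the letters TTTAT, the core bound by the intestinal CDX factors, and TGANTCA, the AP-1 letters, each on either strand.

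Cldn2, chrX:139800558-139800807, plus strand: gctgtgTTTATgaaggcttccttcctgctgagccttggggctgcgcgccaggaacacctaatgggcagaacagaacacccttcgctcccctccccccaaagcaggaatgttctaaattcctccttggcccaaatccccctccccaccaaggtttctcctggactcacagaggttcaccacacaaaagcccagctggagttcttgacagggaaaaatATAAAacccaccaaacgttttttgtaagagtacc

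Cldn15, chr5:136967619-136967843, plus strand: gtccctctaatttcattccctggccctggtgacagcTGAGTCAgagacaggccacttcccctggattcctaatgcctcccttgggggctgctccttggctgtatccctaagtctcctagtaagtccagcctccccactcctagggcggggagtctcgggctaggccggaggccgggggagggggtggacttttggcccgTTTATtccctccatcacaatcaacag

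Cldn3, chr5:134985964-134986213, plus strand: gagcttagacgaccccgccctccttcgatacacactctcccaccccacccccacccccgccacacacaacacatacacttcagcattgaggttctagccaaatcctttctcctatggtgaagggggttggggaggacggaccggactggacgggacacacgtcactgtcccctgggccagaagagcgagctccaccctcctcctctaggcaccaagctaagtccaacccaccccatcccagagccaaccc

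Cldn4, chr5:134946935-134947184, minus strand: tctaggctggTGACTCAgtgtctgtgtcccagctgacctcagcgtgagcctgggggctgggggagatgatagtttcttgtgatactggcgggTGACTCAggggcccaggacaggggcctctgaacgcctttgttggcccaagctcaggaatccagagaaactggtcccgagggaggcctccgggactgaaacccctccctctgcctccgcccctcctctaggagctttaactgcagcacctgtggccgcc

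TTTAT was present in the windows of both pore formers, 244 and 34 bases before the start of Cldn2 and 51 bases before that of Cldn15, and in neither window of the neighbours. The Cldn2 match at 34 bases is on the reverse strand and overlaps a TATA box (TATAAA) that begins at 35 bases. TTTAT is common, with a match in 37.3% of 32851 promoter windows of 250 bases. The AP-1 letters matched at 240 and 158 bases before the Cldn4 start and at 214 bases before that of Cldn15, and they were present in 6.75% of all windows. CTTTGAT, the letters of TCF/LEF factors, which act in Wnt signaling at the crypt base, were searched on both strands and matched in none of the windows of the 7 members for which RefSeq windows were at hand (10 start sites), against 3.21% of all windows. A match describes letters and is not a binding site.

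To compare levels between genes, counts were scaled to exon length and library total (RPKM, reads per kilobase at a common library total). On that scale Cldn7, a sealing claudin spread along the basolateral membrane as well as the junction, had the highest mean over the 18 libraries, 461. Cldn3, a sealing claudin, followed at 410. The pore formers Cldn15 (139) and Cldn2 (114) came next, then Cldn8 (36.0), Cldn12 (21.3), Cldn23 (13.1) and Cldn4 (9.93). Cldn7 was above Cldn3 in the mean of 5 of the 6 groups, and below it, at 457 against 489, in CONV-Ern2-/-, differences that were not tested. The summed level of the claudins ran from 1053 to 1397 in 17 libraries and was 605 in CONV-WT replicate 3.

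**Figure D1:**
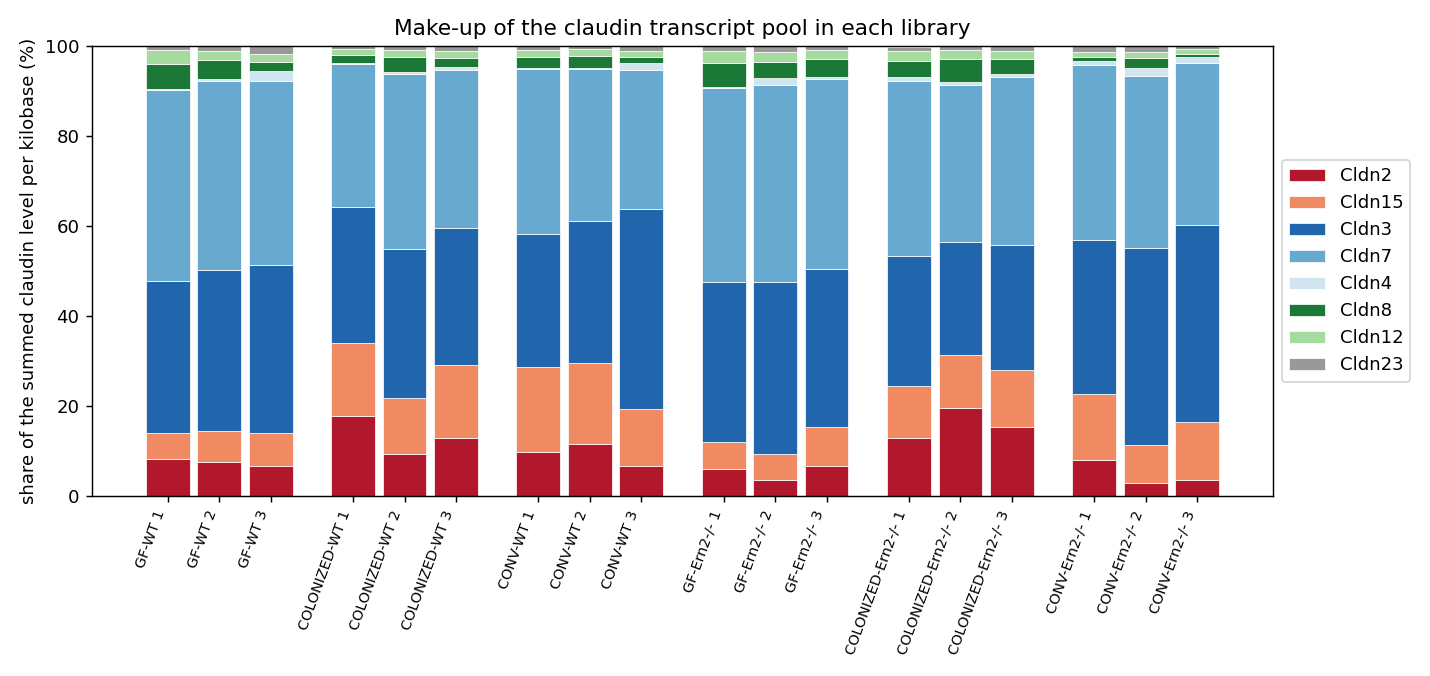
Each bar is 1 library, and its colours give the share of each claudin (%) in the summed claudin level per kilobase. Cldn3 and Cldn7 take most of each bar, and the red and orange part for Cldn2 and Cldn15 is small in GF libraries (9.15% to 15.1%) and larger in COLONIZED libraries (21.7% to 34.0%).

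Within this pool the balance between pore formers and the rest differed by microbial state. Cldn2 and Cldn15 together made up 13.9%, 14.3% and 14.0% of the pool in GF-WT libraries, whereas COLONIZED-WT libraries had 34.0%, 21.7% and 29.0%. With the Ern2-/- label they made up 12.0%, 9.15% and 15.1% of it without microbes and 24.4%, 31.1% and 28.0% after colonization. The COLONIZED and GF libraries did not overlap in either genotype. CONV-WT (28.6%, 29.3% and 19.2%) was also above GF-WT without overlap, whereas CONV-Ern2-/- (22.5%, 11.2% and 16.5%) overlapped with GF-Ern2-/-.

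The make-up of the pore-forming part also differed. Per kilobase, the Cldn2 to Cldn15 ratio was 0.55 ± 0.0716 for CONV-WT, 0.869 ± 0.175 for COLONIZED-WT and 1.12 ± 0.255 for GF-WT (SD, n = 3 each). With the Ern2-/- label it was 0.391 ± 0.143 for CONV, 1.33 ± 0.28 for COLONIZED and 0.786 ± 0.184 for GF mice. CONV libraries (0.275 to 0.633) were below COLONIZED libraries (0.747 to 1.65) in both genotypes without overlap. These shares and ratios were not tested.

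**Figure D2:**
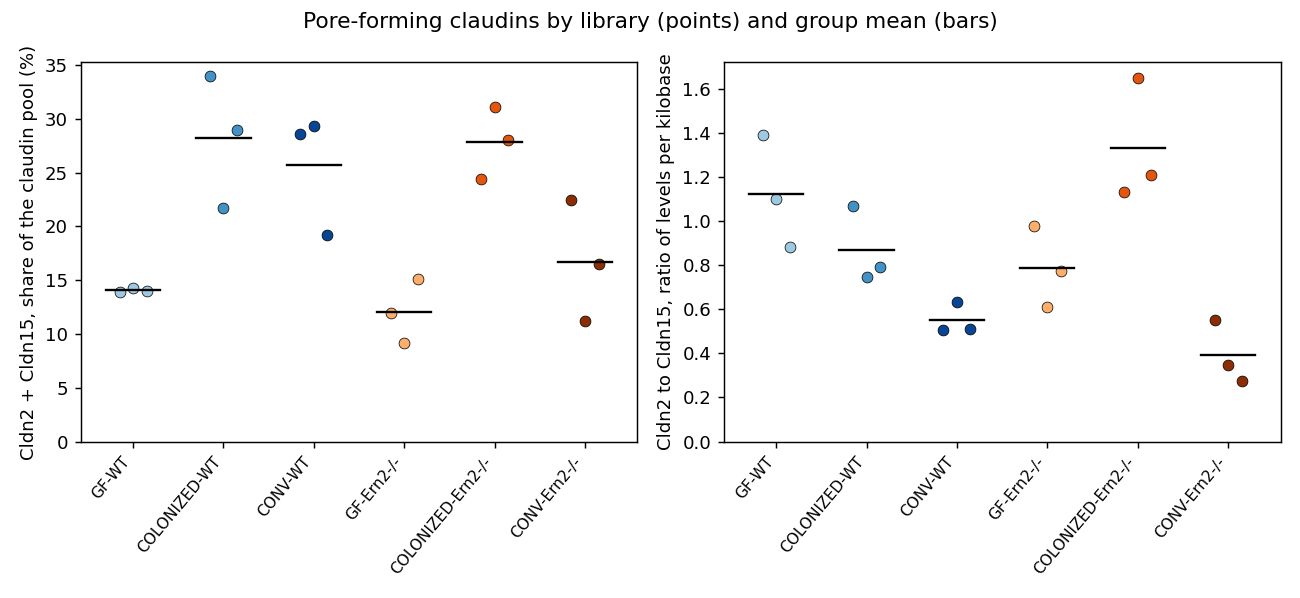
Points are libraries and bars are group means, for the share of Cldn2 plus Cldn15 in the claudin level per kilobase (left, %) and for the ratio of Cldn2 to Cldn15 per kilobase (right). The share is lowest in both GF groups, and the ratio is lowest in both CONV groups.

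From here on, levels are counts normalized by size factors, which compare libraries but not genes. Where groups are said not to overlap, the share of all genes that also did not was not determined. Cldn2, which forms a channel for sodium and water and is made mainly in crypt base cells, had 3847, 4524 and 3906 normalized counts in GF-WT (replicates 1, 2 and 3). COLONIZED-WT had 10416, 5351 and 7163, and CONV-WT had 5281, 6351 and 1788. COLONIZED-WT was above GF-WT in every library, and CONV-WT overlapped with both. Among libraries labelled Ern2-/-, GF had 3265, 2573 and 3521, COLONIZED 7078, 10464 and 8225, and CONV 5239, 1495 and 2133. COLONIZED-Ern2-/- was above GF-Ern2-/- and CONV-Ern2-/- without overlap. From high to low the means ran COLONIZED-Ern2-/-, COLONIZED-WT, CONV-WT, GF-WT, GF-Ern2-/- and CONV-Ern2-/-, and of these neighbours GF-WT and GF-Ern2-/- alone did not overlap.

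Cldn15, a channel for cations best known from the small intestine, where it supplies luminal sodium for nutrient uptake, had 1726, 2572 and 2771 normalized counts in GF-WT. COLONIZED-WT had 6062, 4477 and 5663, and CONV-WT 6507, 6272 and 2186. GF-Ern2-/- libraries had 2089, 2640 and 2844, COLONIZED-Ern2-/- libraries 3913, 3970 and 4262, and CONV-Ern2-/- libraries 5942, 2697 and 4851. COLONIZED was above GF without overlap in both genotypes. CONV reached the highest single values but overlapped with GF in both genotypes, through CONV-WT replicate 3 and CONV-Ern2-/- replicate 2. By mean the order was COLONIZED-WT, CONV-WT, CONV-Ern2-/-, COLONIZED-Ern2-/-, GF-Ern2-/- and GF-WT, with a gap between neighbours at COLONIZED-Ern2-/- and GF-Ern2-/- alone.

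**Figure D3:**
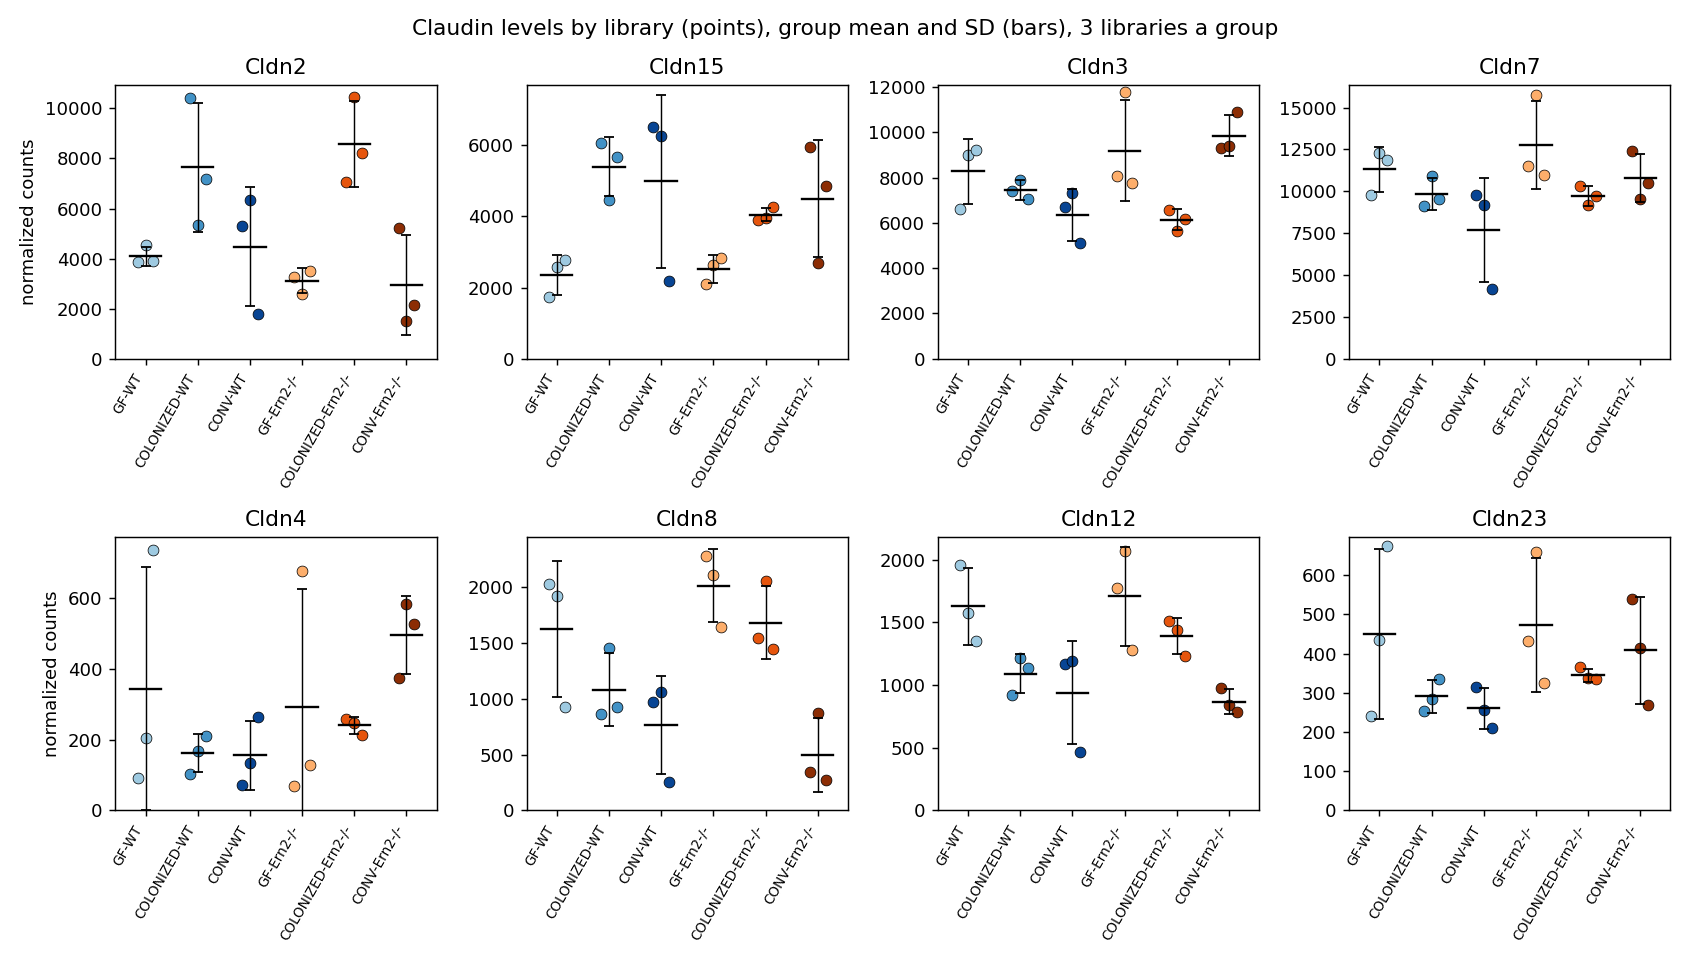
Each panel gives 1 claudin, with normalized counts on the vertical axis, points for the 3 libraries of a group, and bars for the group mean and SD. Cldn2 and Cldn15 are higher in COLONIZED than in GF libraries of both genotypes, Cldn8 and Cldn12 are lowest by mean in CONV-Ern2-/-, and CONV-WT replicate 3 is the lowest of the 18 libraries for Cldn3, Cldn7, Cldn8, Cldn12 and Cldn23.

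Cldn3, a sealing claudin found all along the crypt, had similar levels in the WT groups, which all overlapped, with GF-WT at 6617, 9013 and 9211 normalized counts, COLONIZED-WT at 7401, 7906 and 7052, and CONV-WT at 6686, 7299 and 5089. GF-Ern2-/- had 8063, 11763 and 7767. COLONIZED-Ern2-/- had 6571, 5641 and 6186, and CONV-Ern2-/- had 9295, 9392 and 10885. Every CONV-Ern2-/- library was above every library of the 3 WT groups and of COLONIZED-Ern2-/-. COLONIZED-Ern2-/- was below COLONIZED-WT and both GF groups, again without overlap. The means ran CONV-Ern2-/-, GF-Ern2-/-, GF-WT, COLONIZED-WT, CONV-WT and COLONIZED-Ern2-/- from high to low, and each overlapped with the next.

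Cldn4, a sealing claudin and toxin receptor that is strongest at the surface epithelium, spread most widely within the GF groups. GF-WT had 91.4, 205 and 734 normalized counts and GF-Ern2-/- 70.1, 676 and 127, so 1 library in each GF group was far above the others. COLONIZED-WT had 104, 167 and 211, and CONV-WT had 71.7, 133 and 263. COLONIZED-Ern2-/- had 258, 247 and 214, and CONV-Ern2-/- had 374, 584 and 527. CONV-Ern2-/- was above every library of CONV-WT, COLONIZED-WT and COLONIZED-Ern2-/-, and COLONIZED-Ern2-/- was above COLONIZED-WT. The GF groups overlapped with all others. By mean the order was CONV-Ern2-/-, GF-WT, GF-Ern2-/-, COLONIZED-Ern2-/-, COLONIZED-WT and CONV-WT, with the 1 gap between neighbours at the COLONIZED groups.

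Cldn7, the most abundant member, stood at 9773, 12291 and 11874 normalized counts in GF-WT. COLONIZED-WT libraries had 9116, 10912 and 9512, and CONV-WT libraries 9789, 9169 and 4134. Values were 11514, 15772 and 10960 for GF-Ern2-/-, 10325, 9150 and 9704 for COLONIZED-Ern2-/-, and 12385, 9563 and 10466 for CONV-Ern2-/-. GF-Ern2-/- was above COLONIZED-Ern2-/-, COLONIZED-WT and CONV-WT without overlap, and the other pairs of groups overlapped. Its order by mean was GF-Ern2-/-, GF-WT, CONV-Ern2-/-, COLONIZED-WT, COLONIZED-Ern2-/- and CONV-WT.

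Cldn8, which keeps sodium from leaking back between the cells of the distal colon, had 2023, 1923 and 927 normalized counts in GF-WT. COLONIZED-WT had 862, 1454 and 929, and CONV-WT had 972, 1062 and 257. GF-Ern2-/- had 2281, 2111 and 1646, COLONIZED-Ern2-/- 1543, 2057 and 1446, and CONV-Ern2-/- 345, 873 and 270. The CONV-Ern2-/- libraries were below every library of GF-Ern2-/-, COLONIZED-Ern2-/- and GF-WT, and they overlapped with CONV-WT and COLONIZED-WT. By mean, the order was GF-Ern2-/-, COLONIZED-Ern2-/-, GF-WT, COLONIZED-WT, CONV-WT and CONV-Ern2-/-, and each neighbour overlapped with the next.

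Cldn12, a claudin without the C-terminal motif that ties others to the scaffold and linked to calcium passage, had 1959, 1579 and 1353 normalized counts in GF-WT. COLONIZED-WT had 922, 1217 and 1138, and CONV-WT had 1165, 1191 and 466. GF-Ern2-/- had 1772, 2067 and 1284, COLONIZED-Ern2-/- 1510, 1438 and 1233, and CONV-Ern2-/- 977, 840 and 786. Both WT groups with microbes were below GF-WT without overlap. CONV-Ern2-/- was below both GF-Ern2-/- and COLONIZED-Ern2-/-, and COLONIZED-WT was below COLONIZED-Ern2-/-. Its order by mean was GF-Ern2-/-, GF-WT, COLONIZED-Ern2-/-, COLONIZED-WT, CONV-WT and CONV-Ern2-/-, and among these neighbours the COLONIZED groups alone did not overlap.

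Cldn23, a claudin of differentiated surface cells, had group means between 260 ± 52.2 (CONV-WT) and 473 ± 171 normalized counts (GF-Ern2-/-, SD, n = 3 each). Single libraries ran from 210 to 675, and 2 pairs of groups did not overlap, CONV-WT with COLONIZED-Ern2-/- and with GF-Ern2-/-. Cldn1, a sealing claudin of skin that is raised in inflamed or malignant colon, was at 0 in 17 libraries. A count of 3, the limit that 0 allows for counting error, is 0.13 to 0.511 CPM in these libraries, so Cldn1 was not detectable at this depth.

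Both pore formers were higher after colonization, in either genotype. The response to a new microbiota was read from COLONIZED against GF mice, by DESeq2's Wald test on all genes, and a change was called where the Benjamini-Hochberg adjusted p was under 0.01. COLONIZED mice had also been gavaged and moved out of the isolator, so microbiota, gavage and housing cannot be told apart here. In WT mice 3 of 8 claudins tested were called, where 18.3% of all genes tested were called. Of these 2 were higher (9.35% of all genes) and 1 lower (8.97%). The median log2 fold change of the 8 was -0.38, beside -0.01 over all genes. Cldn15 was 2.30-fold higher (log2 fold change 1.20 ± 0.21 SE, adjusted p = 2.57e-07), and Cldn2 was 1.88-fold higher (0.91 ± 0.23, adjusted p = 6.66e-04). Cldn12 was 1.48-fold lower (log2 fold change -0.57 ± 0.18, adjusted p = 0.00969), and 1 of 6 DESeq2 fits that each left out a library still called it (the fit without GF-WT replicate 3). Cldn2 and Cldn15 were called in 6 of 6 such fits. With Y-linked transcripts as a covariate the difference rests on COLONIZED-WT replicate 2 alone, the 1 library of its group without them, as in all of GF-WT. That fit assumes the lone library to vary like the others. In it DESeq2 called none of them and gave Cldn2 0.40 (adjusted p = 0.446), Cldn12 -0.41 (adjusted p = 0.438) and Cldn15 0.93 (adjusted p = 0.0423). edgeR called Cldn15 alone (adjusted p = 0.00883), where it called 4.94% of all genes.

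In mice labelled Ern2-/-, 2 of 8 claudins were called on colonization, both higher, where 7.17% of all genes were called and 3.6% were called higher. Cldn2 was 2.75-fold higher (log2 fold change 1.46 ± 0.22 SE, DESeq2 adjusted p = 9.60e-09), and it was called in 6 of 6 fits with a library left out. Cldn15 was 1.60-fold higher (0.68 ± 0.19, adjusted p = 0.00486), a call kept in 2 of 6 such fits and lost without GF replicate 1 or any 1 of the COLONIZED libraries. Without the 3 libraries whose Ern2 count went against the label, DESeq2 gave Cldn3 a log2 fold change of -1.01 (adjusted p = 8.34e-04), where all libraries gave -0.59 ± 0.22 (adjusted p = 0.0591), and Cldn15 0.62 (adjusted p = 0.072), in a fit that assumes the 1 GF library left to vary like the others. edgeR called 0 of the claudins, with adjusted p = 0.0158 for Cldn2 and 0.0515 for Cldn15, where it called 0.216% of all genes. The difference between the genotypes in this response was tested as an interaction on 12 libraries, and 0 claudins were called, with 0 at an unadjusted p under 0.05 and 0 by edgeR, where DESeq2 called 0.028% of all genes. The interval of the difference was -0.11 to 1.23 for Cldn2 and -1.09 to 0.05 for Cldn15 (95%, log2).

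Markers of several cell types moved with colonization. Of 15 proliferation markers 15 were called higher in COLONIZED-WT than in GF-WT and 13 in COLONIZED-Ern2-/- than in GF-Ern2-/-, with summed levels of 569 to 976 against 1514 to 1703 CPM in WT mice and 643 to 982 against 1798 to 2021 in those labelled Ern2-/-. Of 13 surface colonocyte markers 1 was called higher and 4 lower in WT mice, and 6 were lower in mice labelled Ern2-/-. Goblet markers were called for 8 of 11 in WT mice (6 higher, 2 lower) and for 4 in mice labelled Ern2-/- (3 higher, 1 lower). Tuft markers were called higher for 4 of 6 and 1 of 6, enteroendocrine markers for 1 of 8 and 4 of 8, deep crypt secretory markers for 2 of 3 and 1 of 3, and crypt base markers for 3 and 1 of the 12 tested, in WT mice and mice labelled Ern2-/- in turn, beside 18.3% and 7.17% of all genes called. With the Ern2-/- label 1 of 2 endothelial markers tested was called lower. Their part in the claudin results was not tested. In bulk libraries such as these, fewer cells of a type and less RNA per cell cannot be told apart.

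Between CONV and GF mice, Cldn8 and Cldn12 were lower with the Ern2-/- label, and no claudin was called in WT mice. GF mice lived in isolators and CONV mice did not, so microbiota and housing cannot be told apart here either. In WT mice 0 of 8 claudins passed, where 11% of all genes were called by DESeq2, and edgeR also called 0 claudins, with 0.175% of all genes. At an unadjusted p under 0.05 there were 3, beside 4216 of all 13872 genes tested. They were Cldn15 (log2 fold change 1.07 ± 0.44 SE, adjusted p = 0.0723), Cldn12 (-0.80 ± 0.39, adjusted p = 0.147) and Cldn8 (-1.10 ± 0.55, adjusted p = 0.154). Without CONV-WT replicate 3 DESeq2 called 2 claudins, Cldn2 and Cldn15, and gave Cldn15 a log2 fold change of 1.44 (adjusted p = 2.13e-08). With the library total as a covariate, Cldn2 and Cldn15 were called and the values of Cldn8 and Cldn12 went to 0.0.

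In mice labelled Ern2-/-, CONV against GF called 2 of 8 claudins, both lower, where 4.34% of all genes were called and 2.77% were called lower. Cldn8 was 4.08-fold lower (log2 fold change -2.03 ± 0.41 SE, DESeq2 adjusted p = 5.50e-05), and 6 of 6 fits with a library left out kept the call. Its log2 fold change ran from -2.71 to -1.74 over those fits. Cldn12 was 1.97-fold lower (-0.98 ± 0.25, adjusted p = 0.00344), a call lost without GF replicate 1 or 2 or CONV replicate 2 or 3. Cldn15 had a log2 fold change of 0.83 ± 0.32 (adjusted p = 0.0902). edgeR called 0 claudins here (adjusted p = 0.0541 for Cldn8 and 0.0623 for Cldn12), where it called 0.0325% of all genes, and DESeq2 with the library total as a covariate also called 0. The interaction with genotype was called for 0 claudins, with 0 at an unadjusted p under 0.05 and 0 by edgeR, against 0.177% of all genes, and its interval for Cldn8 ran from -2.40 to 0.54 (95%, log2).

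In the CONV against GF comparison of WT mice, 9 of 15 proliferation markers, 4 of 6 tuft markers, 1 of 3 deep crypt secretory markers and 2 of 9 mesenchymal markers tested were called higher, 5 of 13 surface colonocyte markers lower, and 5 of 11 goblet markers in either direction (3 higher, 2 lower). With the Ern2-/- label, goblet markers were called for 5 of 11 (1 higher, 4 lower), enteroendocrine markers for 4 of 8 (3 higher, 1 lower), tuft markers for 2 of 6, both higher, surface colonocyte markers for 1 of the 11 tested, lower, mesenchymal markers for 1 of the 10 tested, higher, and proliferation markers for 0 of 15. Of all genes tested, 11% were called in WT mice and 4.34% in mice labelled Ern2-/-. What part the markers had in the claudin values was not tested.

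CONV against COLONIZED mice set a lifelong microbiota against one given 14 days before. The COLONIZED mice of both genotypes received material of WT donors and were kept in sterile cages, so timing, source of the microbiota and housing cannot be told apart. In WT mice 0 of 8 claudins were called by DESeq2, 0 had an unadjusted p under 0.05 and edgeR called 0, where DESeq2 called 0.119% of all genes. In mice labelled Ern2-/- 5 of 8 were called, where 8.59% of all genes were called. Of these 2 were higher (4.86% of all genes) and 3 lower (3.73%), and the median of the 8 was 0.16, beside -0.01 over all genes. The sealing claudins Cldn4 and Cldn3 were higher in CONV, by 2.06-fold (log2 fold change 1.04 ± 0.23 SE, adjusted p = 2.88e-04) and 1.61-fold (0.69 ± 0.16, adjusted p = 3.39e-04). Cldn8 was 3.39-fold lower (-1.76 ± 0.38, adjusted p = 1.29e-04), Cldn2 2.89-fold lower (-1.53 ± 0.39, adjusted p = 0.00177) and Cldn12 1.59-fold lower (-0.67 ± 0.18, adjusted p = 0.00330). Sealing members thus stood on both sides, with Cldn3 and Cldn4 higher and Cldn8 lower.

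Fits with a library left out kept Cldn3 and Cldn4 in 5 of 6 (both lost without COLONIZED-Ern2-/- replicate 3), Cldn8 in 4, Cldn2 in 2 and Cldn12 in 1. Over those fits the log2 fold change ran from -2.43 to -1.47 for Cldn8 and from -2.24 to -1.21 for Cldn2. edgeR called 0 of the 5 claudins, with adjusted p from 0.0229 for Cldn4 to 0.0584 for Cldn2, where it called 0.282% of all genes, and DESeq2 with the library total as a covariate called 0. Library totals were 5865619 to 15419844 counts in CONV-Ern2-/- and 14046576 to 20231830 in COLONIZED-Ern2-/-. In the same comparison 10 of 13 surface colonocyte markers were called higher in CONV, with summed levels of 26498 to 36312 against 12127 to 17046 CPM, and 8 of 15 proliferation markers were called lower. Goblet markers were called lower for 5 of 11, at 4239 to 5600 against 10890 to 21153 CPM. Enteroendocrine markers were called lower for 3 of 8, deep crypt secretory markers for 1 of 3 and crypt base markers for 1 of 13, while 2 of 10 mesenchymal and 1 of 2 endothelial markers tested were called higher. Mesenchymal markers summed to 4.93 to 26.4 in CONV-Ern2-/- and to at most 7.41 in COLONIZED-Ern2-/-. DESeq2 called 8.59% of all genes in this comparison. The part of the markers in the result was not tested.

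**Figure D4:**
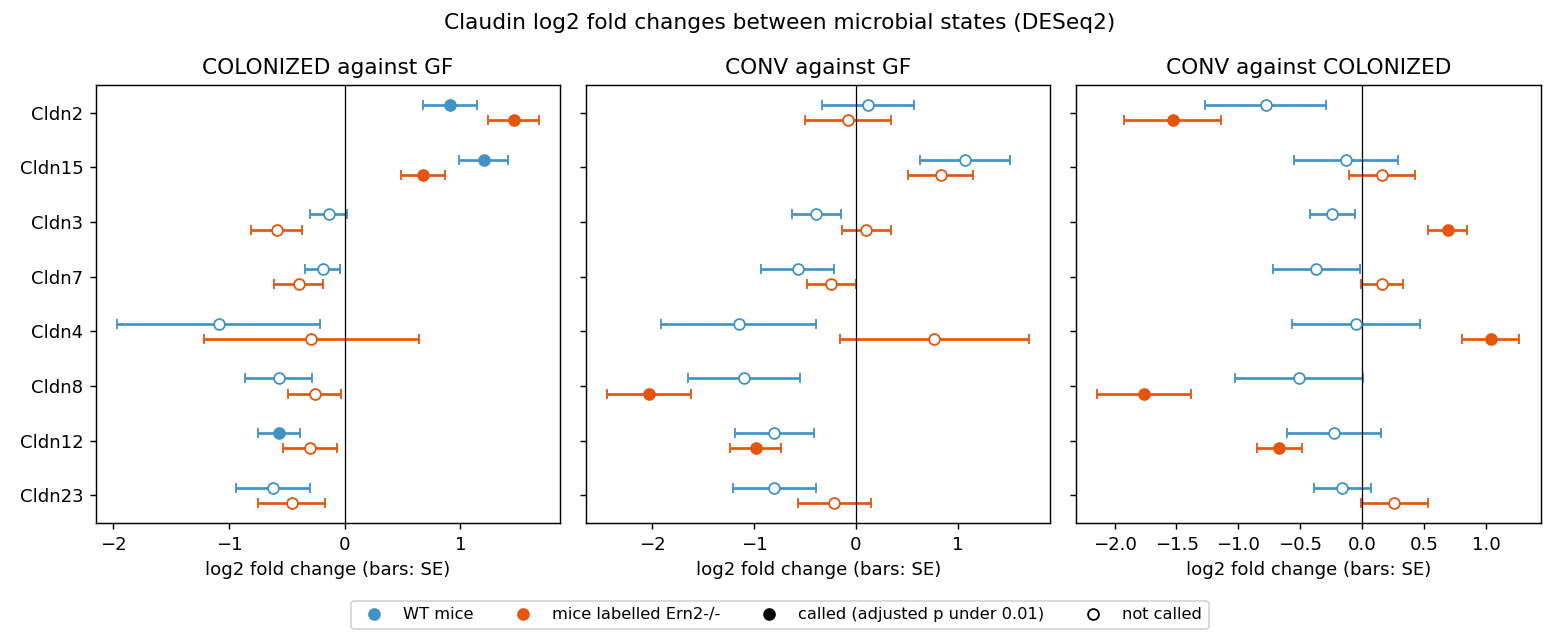
Log2 fold changes of the 8 detected claudins (points, with SE bars) in COLONIZED against GF, CONV against GF and CONV against COLONIZED mice, in WT mice (blue) and mice labelled Ern2-/- (orange). Filled points passed an adjusted p under 0.01, among them Cldn2 and Cldn15 in both genotypes at left and 5 claudins, all in mice labelled Ern2-/-, at right.

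Whether CONV against COLONIZED differed between the genotypes was tested by an interaction that was chosen after seeing the data. It called 1 of 8 claudins, Cldn3, where 0.293% of all genes were called and 0.134% called in that direction. The log2 difference for Cldn3 was 0.92 ± 0.21 SE (DESeq2 adjusted p = 0.00678, 95% interval 0.51 to 1.33), with CONV above COLONIZED in mice labelled Ern2-/- and not in WT mice. edgeR called 0 (adjusted p = 0.267), and 3 of 12 DESeq2 fits with a library left out kept the Cldn3 call (those without CONV-WT replicate 2 or 3 or CONV-Ern2-/- replicate 2). For Cldn8, Cldn2 and Cldn4 the intervals were -2.66 to 0.16, -2.13 to 0.61 and -0.04 to 2.24. In the same interaction 3 of 13 surface colonocyte markers were called higher (median 1.65), and 0 of 15 proliferation markers were called (median -0.68). Their part was not tested.

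The genotype labels were then compared within each microbial state, and no claudin was called in any of them by the main DESeq2 fit. A replicate block changed that, with Cldn4 called between the CONV genotypes and Cldn8 between the COLONIZED genotypes. In CONV mice 0 of 8 claudins were called by DESeq2, where it called 3.03% of all genes, and edgeR called 0. Of all 12625 genes tested 2186 had an unadjusted p under 0.05, and 2 claudins did. These 2 were the sealing claudins Cldn4 (log2 fold change 1.67 ± 0.48 SE, adjusted p = 0.0148) and Cldn3 (0.63 ± 0.21, adjusted p = 0.0497), with the libraries of CONV-Ern2-/- above those of CONV-WT in both. Without CONV-WT replicate 3 DESeq2 called Cldn4 (adjusted p = 8.01e-09). In the same comparison 8 of 13 surface colonocyte markers were called higher in CONV-Ern2-/- and 7 of 11 goblet markers lower, and 2 of 13 crypt base markers were called, 1 higher and 1 lower, with the median of that list at -0.64. Their part was not tested.

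In COLONIZED mice 0 of 8 claudins were called by DESeq2, against 1.37% of all genes. An unadjusted p under 0.05 was found for 5 of the 8, beside 2664 of all 11960 genes tested. By edgeR 0 claudins and 0.00786% of all genes were called. COLONIZED-Ern2-/- against COLONIZED-WT gave log2 fold changes of -0.42 ± 0.14 SE for Cldn15 (adjusted p = 0.0524) and 0.63 ± 0.22 for Cldn8 (adjusted p = 0.0643). Cldn3 (-0.29), Cldn4 (0.57) and Cldn12 (0.35) had adjusted p of 0.0981, 0.149 and 0.148. The groups did not overlap for Cldn3, Cldn4, Cldn12 and Cldn15, and the share of all genes without overlap was not determined. Without COLONIZED-WT replicate 2 DESeq2 called Cldn8 and Cldn15. In the same comparison 4 of 11 goblet markers and 3 of the 12 crypt base markers tested were called lower in COLONIZED-Ern2-/-, and 0 surface colonocyte or proliferation markers were called, and their part was not tested. In GF mice 0 claudins were called by DESeq2, against 0.035% of all genes, and 0 by edgeR. An unadjusted p under 0.05 was found for 1, Cldn2 at -0.39 ± 0.20 SE (DESeq2 adjusted p = 1), beside 254 of all 17167 genes tested. The 95% interval for Cldn2 was -0.78 to 0.00.

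Other junction genes were called on colonization of WT mice, in the comparison where 18.3% of all genes were. Of 21 other strand and scaffold proteins of the tight junction, 0 were called higher and 4 lower (8.97% of all genes were lower), with a median log2 fold change of -0.25, beside -0.01 over all genes. These were Cxadr, a junction adhesion protein (-0.80), Ocln, the strand protein occludin (-0.71), Tjp1, the scaffold to which claudins bind (-0.64), and Inadl, another scaffold (-0.40). Cxadr, Ocln, Tjp1 and Inadl were each called in 6 of 6 DESeq2 fits with a library left out. In mice labelled Ern2-/- 0 of 21 were called on colonization, at a median of -0.21, where 7.17% of all genes were called. Of 16 proteins of adherens junctions and desmosomes, Pvrl1 was called higher (1.02) and Dsg2 (-0.68), Dsp (-0.51) and Pvrl3 (-0.46) lower in COLONIZED-WT than in GF-WT, at a median of -0.17. Fits with a library left out kept Pvrl1 and Dsp in 6 of 6, Pvrl3 in 4 and Dsg2 in 1.

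With CONV-Ern2-/- against COLONIZED-Ern2-/-, 2 of the 21 were called higher and 1 lower, at a median log2 fold change of 0.18, where 8.59% of all genes were called. Of the 16 adherens junction and desmosome proteins, Ctnnb1 (0.84) and Pkp3 (0.79) were called higher, each kept in 1 of 6 fits with a library left out. Cgnl1, which links junctions to actin, was lower by DESeq2 (-1.20 ± 0.22 SE, adjusted p = 4.39e-06), and was kept in 6 of 6 such fits. The polarity proteins Pard6b (0.75) and Crb3 (0.72) were higher, each kept in 1 of 6. Cgnl1 was also the 1 of 21 called between CONV-Ern2-/- and CONV-WT, beside 3.03% of all genes, at 354 ± 86.3 against 992 ± 189 normalized counts (SD, n = 3 each). Its log2 fold change there was -1.49 ± 0.28 with a DESeq2 adjusted p of 1.38e-05, kept in 6 of 6 fits. It was lower in CONV-Ern2-/- than in GF-Ern2-/- (-1.35, kept in 2 of 6), again 1 of 21 called, beside 4.34% of all genes. CONV-WT against GF-WT called 2 of the 21, beside 11% of all genes: Ildr1, of tricellular junctions (-1), and Inadl (-0.61) were lower, each kept in 2 of 6. Among 12 claudin partners and regulators, the protease inhibitor Spint1 was lower on colonization in both genotypes (-0.72 in WT and -0.74 in Ern2-/-) and the ubiquitin ligase Lnx1 in WT mice (-0.72), 2 of 12 and 1 of 12 called beside 18.3% and 7.17% of all genes. In CONV-Ern2-/- against COLONIZED-Ern2-/-, 3 of 12 were called beside 8.59% of all genes, with the myosin kinase Mylk (0.79) and Lnx1 (0.78) higher and the protease Prss8 lower (-0.75). CONV-Ern2-/- against GF-Ern2-/- called 2 of 12 beside 4.34% of all genes, with Prss8 lower (-1.06) and the kinase Rock2 higher (0.70). Rock2 was the 1 of 12 called between CONV-Ern2-/- and CONV-WT (0.74, beside 3.03% of all genes), and Spint1 the 1 of 12 called in CONV-WT against GF-WT (-1.32, beside 11%). These partner calls were fragile to single libraries. Prss8 against GF-Ern2-/- was kept in 5 of 6 fits with a library left out and Spint1 in COLONIZED-Ern2-/- in 4, and the others were kept in 1 to 3. Comparisons that share a group, as these do, are not independent.

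A list of 14 genes of transcellular sodium and chloride transport held carriers, channels and pumps and also regulators, among them a kinase, a steroid hormone receptor and a steroid-converting enzyme. On colonization of WT mice 10 of the 14, these regulators included, were called lower and 0 higher, where 18.3% of all genes were called and 8.97% lower, at a median log2 fold change of -1.11 beside -0.01 over all genes. In mice labelled Ern2-/- 7 of 14 were called lower and 0 higher, where 7.17% of all genes were called, at -1.14 beside -0.02. Scnn1g, a subunit of the epithelial sodium channel, was at 84.8 ± 71.1 normalized counts in GF-WT against 1.26 ± 0.474 after colonization, and at 86.7 ± 43.3 and 4.96 ± 4.95 in the groups labelled Ern2-/-. Atp12a, the colonic proton-potassium pump, fell from 6630 ± 1620 to 193 ± 224 normalized counts in WT mice (log2 fold change -5.09) and from 5300 ± 3610 to 66.8 ± 48.8 in those labelled Ern2-/- (-6.31). Slc9a3, an apical sodium-proton exchanger, had log2 fold changes of -3.56 in WT mice and -2.70 in those labelled Ern2-/-, and the kinase Sgk1 had -1.14 in WT mice. Against GF, CONV mice had 9 of 14 called lower in WT (median -1.7, beside 11% of all genes called). With the Ern2-/- label it was 5 of 14 (-1.16, beside 4.34%), and 0 were higher in either. CONV-Ern2-/- against COLONIZED-Ern2-/- called 2 of 13 higher and 3 lower, beside 8.59% of all genes. Slc26a3, the apical chloride-bicarbonate exchanger, was higher in CONV-Ern2-/- than in CONV-WT (2.26 ± 0.36 SE, DESeq2 adjusted p = 1.66e-07) and also counts among the surface colonocyte markers. It was the 1 of 13 tested that was called there, beside 3.03% of all genes. Of 14 transcription factors that act at claudin genes, Gata4 (-2.63), Klf4 (-0.80) and Tcf7l2 (-0.71) were called lower in COLONIZED-WT than in GF-WT, and Grhl3 (1.97) was called higher in COLONIZED-Ern2-/- than in GF-Ern2-/-. Fits with a library left out kept Gata4 and Tcf7l2 in 5 of 6, Klf4 in 4 and Grhl3 in 1. These 3 and 1 of 14 stand beside 18.3% and 7.17% of all genes called there. In CONV-Ern2-/- against COLONIZED-Ern2-/- 1 of 14 was called, higher, beside 8.59% of all genes.

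Across the 18 libraries the claudins did not move as a block. On log2 normalized counts Cldn8 and Cldn12 ran most alike (Pearson r = 0.87), followed by Cldn3 and Cldn7 and by Cldn7 and Cldn12 (0.74 each). The pore formers Cldn2 and Cldn15 had r = 0.58, the neighbours Cldn3 and Cldn4 had 0.52, and Cldn2 and Cldn3 had the lowest, -0.42. These are descriptions over 18 libraries that share groups and depth. Among 10851 genes, those with the pattern most like Cldn2 were Msh6 (r = 0.951), Slc38a1 (0.941) and Bri3bp (0.926). For Cldn15 they were Kcnk1 (0.901), Fam73a (0.881) and Ifnar2 (0.879), for Cldn8 Wls (0.958), Slc1a1 (0.933) and Ctse (0.931), and for Cldn12 1600012H06Rik (0.963), Kdsr (0.958) and Aga (0.957). Cldn3 was most like Aldh16a1 (0.919), Fuca1 (0.89) and Sigirr (0.868), Cldn7 like Ctsb (0.961), Spint2 (0.956) and B3gnt1 (0.956), Cldn4 like Ncoa7 (0.895), Emp1 (0.894) and Lrrc1 (0.89), and Cldn23 like Erlin1 (0.913), Dsg2 (0.901) and Tor1aip2 (0.893).

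The table held 16 other claudin rows, of which 14 had a mean under 10 normalized counts, 3 of them (Cldn16, Cldn19 and Cldn24) with no count at all. Cldn14, a claudin that blocks cation channels in kidney, had a mean of 36.0, with group means from 10.6 in CONV-Ern2-/- to 53.6 in COLONIZED-WT. A row named Cldn25 had a mean of 769, but that symbol is an older name of more than 1 gene, so its identity is uncertain. None of the 16 was called in any of the 9 comparisons between groups or the 3 interactions by DESeq2, where between 2 and 13 of them could be tested and at most 1 in a comparison had an unadjusted p under 0.05.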

How the data were processed

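RNA-Seq libraries of colon crypt epithelial cells from 18 mice were analysed. Per the labels and the study's methods, the authors isolated crypts with EDTA, prepared stranded mRNA libraries, sequenced 75-cycle single-end reads, ran the VIPER pipeline and aligned with STAR to mm10. The deposited table holds whole read counts by gene symbol and library, without normalization or pooling. Tool versions, the annotation and how strand was used in counting are not given in the sources used here. Columns of no sample came to 0.

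Each of 9 comparisons was fitted on its own 6 libraries with DESeq2 1.42.0 (R 4.3.3, Wald test, default size factors, independent filtering at 0.1), and 3 interactions on 12 libraries. A call needed an adjusted p (Benjamini-Hochberg) under 0.01, as in the study's methods, over all 18217 genes with a count, less those filtered. edgeR 4.0.16 (quasi-likelihood test), other scalings and filters, a replicate block, covariates for Y-linked transcripts and library total, a fit of all 18 libraries, and each library left out were alternatives. The scripts were tested on simulated counts. Intervals cover 95%. Levels per kilobase used summed exon lengths of GENCODE M21, and tables were made with Python 3.11.15.

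The claudins, lists and tests were chosen with earlier results of these data known. Genes of other lists are named only if called, at most the 4 with the largest change per list and comparison. Genes of like pattern are the 3 with the highest r of log2(normalized count + 1) among genes with a mean of at least 50, and other claudins are named at a mean of at least 10 or if called. No pair of libraries within a group agreed within sampling noise (lowest chi-square per degree of freedom 14.1).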

Additional observations from a re-analysis of the deposited data

Results flagged for a closer look

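For Cldn3 the CONV against COLONIZED change differed between the genotype labels, by a test of the difference itself that was chosen after seeing the data. The log2 difference was 0.92 ± 0.21 SE (DESeq2 adjusted p = 0.00678). Mean normalized counts were 7453 in COLONIZED-WT and 6358 in CONV-WT, against 6133 in COLONIZED-Ern2-/- and 9857 in CONV-Ern2-/-. All 3 CONV-Ern2-/- libraries were above all 3 COLONIZED-Ern2-/- libraries, and the WT groups overlapped. edgeR gave an adjusted p of 0.267 for the same difference. By DESeq2 3 of 13 surface colonocyte markers were called higher in this test as well, and their part was not tested.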

How the results depend on the processing

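Counts of claudins called depended on the tool and on single libraries. edgeR called 1 in COLONIZED-WT against GF-WT and 0 in CONV-Ern2-/- against GF-Ern2-/-, COLONIZED-Ern2-/- against GF-Ern2-/-, CONV-Ern2-/- against COLONIZED-Ern2-/- and the added interaction of CONV against COLONIZED with genotype. With the Y-linked covariate the count was 1 (Cldn4) between the CONV genotypes, 0 in COLONIZED-WT against GF-WT, 1 (Cldn8) in CONV-Ern2-/- against COLONIZED-Ern2-/- and 0 for the added interaction. Between the CONV genotypes that fit leaves CONV-WT replicate 1 alone against CONV-Ern2-/-, and in COLONIZED-WT against GF-WT it leaves COLONIZED-WT replicate 2 alone, so these counts rest on an arm of 1 library assumed to vary like the others. A library total covariate gave 2 in CONV-WT against GF-WT, and 0 in CONV-Ern2-/- against GF-Ern2-/- and against COLONIZED-Ern2-/-. The fit of all 18 libraries called 1 claudin each in COLONIZED-WT against GF-WT (Cldn15), CONV-Ern2-/- against GF-Ern2-/- (Cldn8) and COLONIZED-Ern2-/- against GF-Ern2-/- (Cldn2), 2 in CONV-Ern2-/- against COLONIZED-Ern2-/- (Cldn3 and Cldn8) and 0 for the added interaction, which was also 0 without the libraries whose Ern2 count went against the label. With 1 library left out, counts ran from 0 to 1 between the CONV genotypes, 0 to 2 between the COLONIZED genotypes, 0 to 2 in CONV-WT against GF-WT, 2 to 4 in COLONIZED-WT against GF-WT, 1 to 2 in CONV-Ern2-/- against GF-Ern2-/-, 1 to 3 in COLONIZED-Ern2-/- against GF-Ern2-/-, 1 to 4 in CONV-Ern2-/- against COLONIZED-Ern2-/-, and 0 to 3 for the added interaction.

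Same-numbered replicates did not vary together in every pair (r over 0.1 for each number in 0 of 9 comparisons), so the numbers are taken as labels. The replicate block gave 1 claudin between the CONV genotypes (Cldn4), 1 between the COLONIZED genotypes (Cldn8), 1 in CONV-WT against GF-WT (Cldn8) and 0 for the added interaction.

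Full alternatives were kept for 36 fold changes, those with an unadjusted p under 0.05 and the interactions of claudins called in either genotype, and 5 of these changed sign. Over all 96 fold changes of the 8 detected claudins, 28 changed sign with 1 library left out, and 0 of the 28 had an unadjusted p under 0.05 with all libraries. With the library total as a covariate, CONV-WT against GF-WT gave 0.0 for Cldn8 and 0.0 for Cldn12, COLONIZED-WT against GF-WT gave 0.01 for Cldn23, and the CONV against GF interaction gave 0.03 for Cldn12. That interaction ran from -0.51 to 0.02 for Cldn12 with 1 library left out, above 0 without CONV-WT replicate 1 or 2, and the COLONIZED against GF interaction was -0.07 for Cldn12 without the libraries whose Ern2 count went against the label. None of these had been called. Over the alternatives of the 36, 491 values kept their direction and side of the threshold, 79 lost a call, 14 gained one and 7 changed sign. Levels as percent of a claudin's mean moved beyond 1 SD under CPM in 3 of 48, COLONIZED-Ern2-/- at 99.9% for Cldn7, 107% for Cldn15 and 99.6% for Cldn23. The causes were not tested. For Cldn1 a count of 0 allows up to 0.13 CPM in the deepest library and 0.511 CPM in the shallowest.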
